A study of Rattus norvegicus with 2 samples.

Results

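The neurotrophins and their receptors were followed in the hypothalamus of female rats before and at puberty. The set held 6 genes of 22777 in the deposited mRNA table, chosen by name: the ligands Bdnf and Ntf3, the Trk receptors Ntrk2 and Ntrk3, the shared receptor Ngfr and the sorting receptor Sort1. Together they had 11 annotated transcripts, of which 6 belonged to Ntrk3. The prepubertal Sprague Dawley rats were taken on postnatal day 25 and the pubertal rats on postnatal day 35, in the first estrus by vaginal smear, and the labels name no treatment for either stage. The study stated 3 rats per stage, but the files hold 1 column of values per stage, and the way in which rats were joined into a column is not given in the sources used here. Each column was taken as 1 library, so that no spread between rats could be computed and no difference has a test. The pubertal rats were also older, so that age and puberty cannot be told apart.

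Neurotrophins are secreted growth factors that keep neurons alive, guide their wiring and adjust their synapses. Each binds a preferred Trk receptor tyrosine kinase, BDNF the receptor TrkB (gene Ntrk2) and neurotrophin-3 the receptor TrkC (Ntrk3). Neurotrophins also bind p75 (Ngfr), a receptor without a kinase, and the uncleaved proneurotrophins bind p75 together with sortilin (Sort1), which also sorts proBDNF inside the cell. In the hypothalamus, BDNF and TrkB are known for the control of food intake and body weight.

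The tables give FPKM, the fragments of a transcript scaled by its length and by the mapped fragments of the library, which can be compared between genes. In genes with 1 transcript the low values moved in whole steps of 1 fragment. Of 1717 low prepubertal values, 94.6% lay within 0.05 of a whole number of fragments at an implied depth of 20800000 fragments, and of 1947 low pubertal values 94.8% did so at 16200000 fragments. The number of fragments behind each gene with 1 transcript was computed from these steps, and the intervals below are 95% intervals of counting error, with nothing in them for the spread between rats. All 12 hypothalamic markers were above 0 in both libraries, with 9 higher and 3 lower at puberty (Avp, Gnrh1 and Otp). Their summed FPKM was 2697 before puberty and 4099 at puberty, and most of that difference lay in Pmch (1675 and 2723 FPKM) and Oxt (411 and 686 FPKM). Markers of cortex and hippocampus summed to 111 FPKM before puberty and 53.5 FPKM at puberty, with 6 of 7 lower at puberty, and those of the thalamus went from 172 to 136 FPKM, with 4 of 4 lower, where 51.0% of all genes with a mean of at least 1 FPKM were lower. With the libraries scaled to the same level of Actb, a cytoskeletal gene, 5 of 7 cortex and hippocampus markers were lower and their sum at puberty was 70.9 FPKM, whereas 2 of 4 thalamic markers were lower and their sum was 180 FPKM, above the prepubertal one. Markers of red blood cells were higher at puberty in 4 of 4 cases (5674 and 11282 FPKM summed) and those of microglia in 6 of 6 (127 and 157 FPKM). Pituitary markers were higher in 5 of 6 cases and lower in 1 (31.6 and 44.4 FPKM). At equal Actb all markers of these 3 lists were higher.

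Bdnf is transcribed from several promoters, and its promoters respond to different signals. RefSeq gives 6 start sites for rat Bdnf in the GRCr8 assembly, whereas the deposited table has a single Bdnf transcript of 3961 nt, so its FPKM does not separate the promoters. Windows of 250 bases before to 50 bases after the start sites were found for 3 of the 6 genes (Bdnf, Ntf3 and Sort1) and were searched on both strands for the cAMP response element TGACGTCA, its Bdnf variant TCACGTCA and the E-box CACGTG, a sequence bound by USF factors. These letters were found in 2 of 6 Bdnf windows, 0 of 3 Ntf3 windows and 0 of 1 Sort1 window. A pair of the Bdnf windows without them and a pair of the Ntf3 windows overlap for most of their length, so these are not all separate sequences. Among all 33469 rat windows of this length, 1.83% held TGACGTCA, 0.400% held TCACGTCA and 6.42% held CACGTG. The 2 Bdnf windows are shown 5′ to 3′ on the plus strand because they carry these letters, which are in capitals. The E-box window is chr3:116620585-116620884 and the other, with TCACGTCA at bases 213 to 220, is chr3:116637608-116637907.
Bdnf window with the E-box: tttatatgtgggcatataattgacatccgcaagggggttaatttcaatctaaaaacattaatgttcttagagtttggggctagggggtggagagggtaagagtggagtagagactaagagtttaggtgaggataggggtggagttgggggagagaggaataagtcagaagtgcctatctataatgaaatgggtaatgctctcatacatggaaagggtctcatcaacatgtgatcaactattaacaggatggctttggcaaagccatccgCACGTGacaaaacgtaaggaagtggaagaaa
Bdnf window with the cAMP response element variant: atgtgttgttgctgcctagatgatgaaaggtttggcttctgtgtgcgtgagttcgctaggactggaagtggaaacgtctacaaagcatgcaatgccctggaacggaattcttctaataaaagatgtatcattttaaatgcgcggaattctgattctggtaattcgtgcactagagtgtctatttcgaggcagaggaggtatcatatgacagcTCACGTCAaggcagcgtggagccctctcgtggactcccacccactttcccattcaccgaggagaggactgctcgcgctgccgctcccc

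The members covered a wide range of levels. Sort1 was highest, with a mean FPKM above that of 91.0% of the 13804 genes whose mean was at least 1 FPKM, followed by Ntrk2 (86.6%), Ntrk3 (74.3%) and Bdnf (34.8%). Ngfr and Ntf3 had means of 0.999 and 0.481 FPKM and stood below that limit, so that 4 of 6 members passed it. The order Sort1, Ntrk2, Ntrk3, Bdnf, Ngfr, Ntf3 was the same in both libraries. With Ntrk3 left out, the counting intervals of neighbours in this order did not overlap, except those of Ngfr and Ntf3 in the pubertal library.

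**Figure D1:**
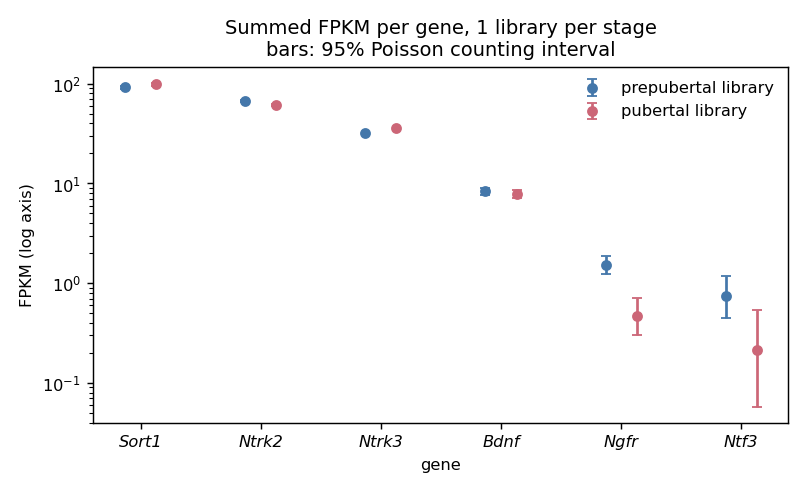
FPKM of the 6 genes (log axis) in the prepubertal and pubertal libraries, 1 point per library, with bars for the 95% Poisson interval of the fragment number, except for Ntrk3, which has several transcripts and no bar. Sort1, Ntrk2, Ntrk3 and Bdnf lie at nearly the same height in both libraries, and Ngfr and Ntf3 lie lower at puberty.

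The sum over transcripts was compared between the stages as log2((pubertal FPKM + 1) / (prepubertal FPKM + 1)), so that a positive value means more at puberty, and the added 1 shrinks the ratio of low genes. The ratio was negative for 4 members and positive for 2, with a median of -0.09 over all 6. Over the 4 members with a mean of at least 1 FPKM, which leave out Ngfr and Ntf3, the median was 0.015, beside -0.0062 for all genes with such a mean. A size rule of 1.5-fold in FPKM + 1 stood in for a call. By this rule 1 of 6 members, Ngfr, was lower at puberty and 0 were higher. The background was 2.41% of the 13804 genes lower and 1.77% higher (332 and 245 genes), or 1.86% and 1.43% of all 22777 listed genes. The split depended on the scaling, with 274 lower and 299 higher at equal medians, 428 and 205 at equal sums of FPKM, and 100 and 2287 with Actb made equal in both libraries, which moved the median of all genes to 0.36. Actb itself had 763 FPKM before puberty and 576 FPKM at puberty. In bulk tissue, fewer cells of a type and less RNA per cell cannot be told apart, and this holds for each value below.

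The mRNAs of BDNF and its receptor TrkB were measured at almost the same level at both stages. Bdnf (ENSRNOG00000047466) had 8.31 FPKM before puberty (640 fragments) and 7.85 FPKM at puberty (473 fragments), a log2 ratio of -0.07. Its FPKM ratio of pubertal to prepubertal was 0.945, with a counting interval of 0.837 to 1.07 that includes no difference and does not reach a 1.5-fold change in either direction. Ntrk2 (ENSRNOG00000018839) had 66.7 FPKM (6235 fragments) and 61.4 FPKM (4488 fragments), a ratio of 0.921 (0.887 to 0.958) and a log2 ratio of -0.12. At equal Actb both were higher at puberty, with log2 ratios of 0.29 for Bdnf and 0.28 for Ntrk2, and after centring on genes of like transcript length the ratio of Ntrk2 was 0.0091.

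The mRNA level of the receptor relative to that of its ligand does not depend on how the libraries are scaled. Ntrk2 stood 8.03 times above Bdnf before puberty and 7.83 times above it at puberty. The table lists 1 Ntrk2 transcript of 4750 nt, so that the full-length TrkB of neurons and the truncated TrkB that is abundant in astrocytes were not separated. Of the 8 astrocyte markers, 3 were lower and 5 higher at puberty, and their sum went from 1959 to 1885 FPKM, or to 2497 FPKM at equal Actb.

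The mRNA of neurotrophin-3, in contrast, was scarce and lower in the pubertal library, while that of its receptor TrkC was not. Ntf3 (ENSRNOG00000019716) had 0.749 FPKM before puberty, which rested on 18 fragments, and 0.212 FPKM at puberty, on 4 fragments. The prepubertal value was 3.53 times the pubertal one, with a counting interval of 1.16 to 14.3. With 1 added to each FPKM the log2 ratio was -0.53, short of the size rule, and with 0.1 added it was -1.44, past it. Ntrk3 (ENSRNOG00000018674) had 32.3 FPKM before puberty and 35.7 FPKM at puberty, a ratio of 1.10 and a log2 ratio of 0.14. Ntrk3 thus stood 43.1 times above Ntf3 in the prepubertal library and 168 times above it in the pubertal library.

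The transcripts of Ntrk3 differed in direction, with 2 lower and 4 higher at puberty. The transcript of 1890 nt (ENSRNOT00000025536) held most of the gene's FPKM before puberty, 18.4 FPKM or 57.0%, and had 15.6 FPKM or 43.8% at puberty. Its log2 ratio was -0.22. The transcript of 1740 nt (ENSRNOT00000047776) went from 2.22 to 6.89 FPKM, 3.11 times higher, and that of 1755 nt (ENSRNOT00000046080) from 1.88 FPKM to 0. These 2 transcripts differ by 15 nt in length, and their sum went from 4.10 to 6.89 FPKM, a ratio of 1.68.

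The longer transcripts of Ntrk3 were all higher in the pubertal library. They had 4.85 and 6.21 FPKM (2682 nt, ENSRNOT00000041839), 4.17 and 5.39 FPKM (2724 nt, ENSRNOT00000045165), and 0.766 and 1.55 FPKM (2757 nt, ENSRNOT00000046849), before and at puberty. Summed, they went from 9.79 to 13.2 FPKM, or from 30.3% to 36.9% of the gene, whereas the shorter transcripts summed to 22.5 FPKM in both libraries. Compared with the 2682 nt transcript, the others of this class are longer by 42 nt (14 codons) and 75 nt (25 codons). TrkC is known to occur with and without its kinase, and with short inserts in the kinase domain. The files give no exons, so which protein each transcript encodes was not established. FPKM of transcripts that share exons are estimates of the program that divides shared fragments among them, so no counting interval is given for them or for their sum, and the division cannot be told apart from a change of splicing here.

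**Figure D2:**
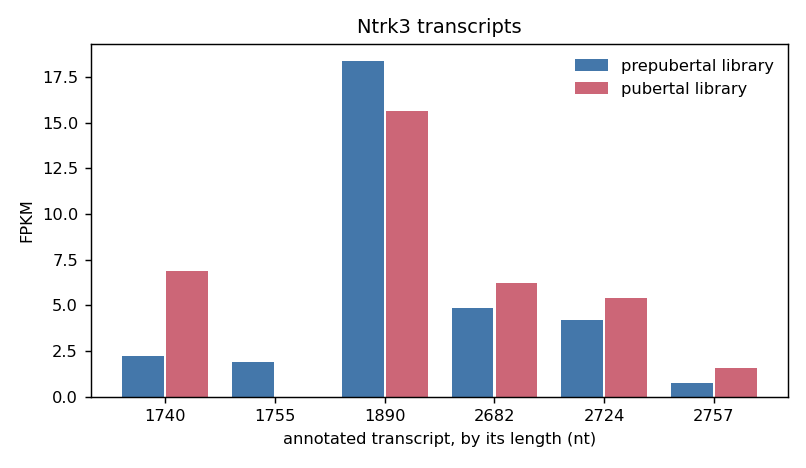
FPKM of the 6 annotated Ntrk3 transcripts, ordered by length in nt, in the prepubertal and pubertal libraries, 1 bar per library. The 1890 nt transcript is highest in both libraries and lower at puberty, the 1755 nt transcript is at 0 at puberty, and the 1740 nt transcript and the 3 longer ones are higher at puberty.

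Ngfr, which encodes p75, showed the largest difference among the members on the FPKM + 1 scale. It (ENSRNOG00000005392) had 1.53 FPKM before puberty (95 fragments, interval 1.23 to 1.86 FPKM) and 0.472 FPKM at puberty (23 fragments, 0.299 to 0.708 FPKM), and these intervals did not overlap. The prepubertal value was 3.23 times the pubertal one (2.03 to 5.34), and the log2 ratio was -0.78. At equal Actb the pubertal value was 0.626 FPKM, still the lower one. Genes as low as Ngfr pass the size rule more often than others, as 4.57% of the 2934 genes with a mean of 0.25 to 2 FPKM were at least 1.5-fold lower and 4.06% at least 1.5-fold higher. In this range, and among the 2825 genes above 0 in both libraries, 3.01% had a FPKM at least 3-fold lower at puberty, as Ngfr and Ntf3 did.

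Sort1, the partner of p75, was not lower. Sort1 (ENSRNOG00000031814) had 92.1 FPKM (4292 fragments) and 98.9 FPKM (3606 fragments), a ratio of 1.07 (1.03 to 1.12) and a log2 ratio of 0.10. Sort1 stood 60.3 times above Ngfr before puberty and 209 times above it at puberty. Ntrk2 stood 43.7 and 130 times above Ngfr.

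**Figure D3:**
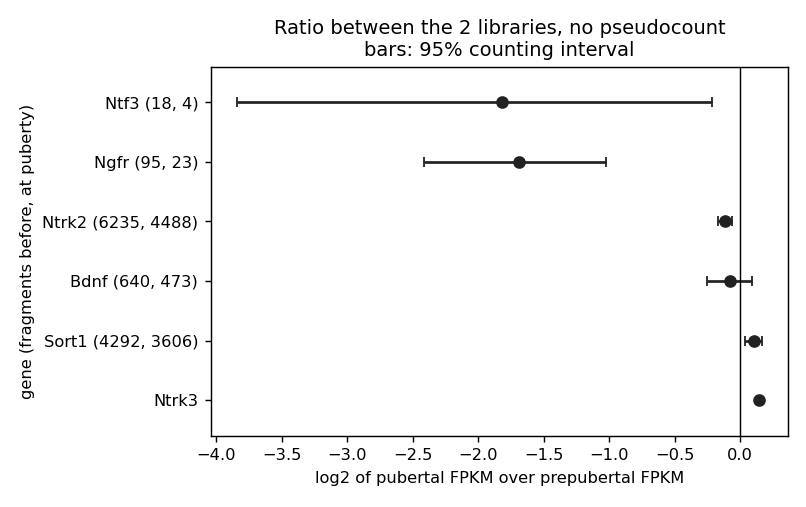
Log2 of pubertal over prepubertal FPKM with no pseudocount, for the 6 members, with the 95% counting interval and the fragments of each library in brackets for all but Ntrk3, whose transcripts share fragments. Ntf3, Ngfr and Ntrk2 lie below 0 with their whole intervals, Sort1 lies above it, and the interval of Bdnf includes 0.

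Ntf4, the other ligand of TrkB, rested on 3 fragments before puberty and 1 fragment at puberty (0.135 and 0.0574 FPKM), too few to show a difference.

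Ngfr is known as a marker of the cholinergic neurons of the basal forebrain, which lies next to the hypothalamus. A list of 7 cholinergic genes was therefore added after these values were seen. Of its 6 measured genes 5 were lower at puberty and Isl1 was higher, at 5.69 and 8.01 FPKM (log2 ratio 0.43). At equal Actb 3 of 6 were lower. The list was chosen with values of this kind known, so its counts carry no weight and its genes are given as values. Chat, which makes acetylcholine, went from 2.38 FPKM (79 fragments) to 0.462 FPKM (12 fragments). The prepubertal value of Chat was 5.16 times the pubertal one (2.79 to 10.4). Slc5a7, the choline transporter, went from 8.13 to 4.16 FPKM, 1.95 times higher before puberty (1.71 to 2.24), and Lhx8, a transcription factor of these neurons, from 2.54 to 1.11 FPKM, 2.29 times higher (1.46 to 3.69). The sum of the list went from 132 to 122 FPKM, or to 161 FPKM at equal Actb, most of it Ache, at 114 and 108 FPKM without that scaling. Chat, Slc5a7 and Lhx8 were lower at puberty also at equal Actb. The part of cholinergic cells in the value of Ngfr was not tested. Markers of fibroblasts and meninges, cells that can express Ngfr, were lower in 6 of 6 cases, with a summed FPKM of 85.0 before and 56.9 at puberty, beside 51.0% of all genes with a mean of at least 1 FPKM. At equal Actb 3 of 6 were lower and the pubertal sum was 75.3 FPKM. Their part was not tested either.

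**Figure D4:**
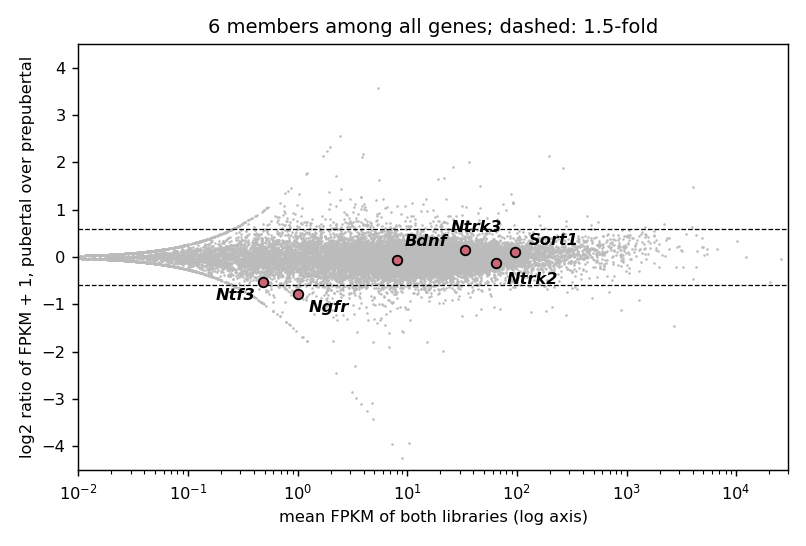
Log2 ratio of FPKM + 1, pubertal over prepubertal, against mean FPKM (log axis) for all genes (grey), with the 6 members in red and dashed lines at 1.5-fold. Ngfr lies below the lower line, Ntf3 just above it and the other 4 members near 0, and 8 genes lie beyond the plotted heights and 59 beyond the plotted means.

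Other genes of neurotrophin signalling differed little between the libraries. Of 109 genes in 7 lists, 105 were measured and 91 had a mean of at least 1 FPKM. Of these 91 genes, 2 were at least 1.5-fold lower (2.20%, beside 2.41% of all genes) and 0 were higher, and their median log2 ratio was -0.10. Of the 105 genes, 70 were lower at puberty and 35 higher, where 51.0% of all genes with a mean of at least 1 FPKM were lower. At equal Actb 25 of the 105 were lower and 80 higher, so that the counts of directions below depend on the scaling.

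Among the genes that sort or cleave proneurotrophins, 7 of 16 were lower and 9 higher, none of them past the size rule. Cpe, carboxypeptidase E, which helps to route proBDNF into secretory granules, was the highest of them and had 854 FPKM before puberty and 610 FPKM at puberty, with a log2 ratio of -0.49. Among adaptors and kinases downstream of Trk receptors, 25 of 38 were lower and 13 higher, and none of the 37 with a mean of at least 1 FPKM passed the size rule. Their median was -0.10 and their range -0.53 to 0.38. Map2k1, the kinase MEK1, was the highest of them, at 129 and 137 FPKM.

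Among the partners of p75, 9 of 12 were lower. By the size rule 1 of 12 was lower, where 2.41% of all genes with a mean of at least 1 FPKM were. The gene past the rule was Lingo1, which forms a receptor for myelin inhibitors with p75 and the Nogo receptor. Lingo1 went from 17.6 FPKM (807 fragments) to 10.6 FPKM (381 fragments), 1.66 times higher before puberty (1.46 to 1.87), with a log2 ratio of -0.68, and was lower at puberty at equal Actb too. Lingo1 is also a gene of cortical neurons, and Slc17a7, a vesicular glutamate transporter of cortical neurons, had 26.2 FPKM before puberty and 12.8 FPKM at puberty (named after its values were seen). The part of cortical RNA in the value of Lingo1 was not tested. Ngfrap1, a protein that binds the death domain of p75, was the highest of the list at 316 and 331 FPKM.

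Among the regulators of Bdnf transcription, 8 of 10 were lower at puberty. By the size rule 1 of 10 was lower, where 2.41% of all genes with a mean of at least 1 FPKM were. The gene past the rule was Crtc1, a coactivator of CREB, from 5.47 FPKM (186 fragments) to 3.16 FPKM (84 fragments). Crtc1 was 1.73 times higher before puberty (1.33 to 2.27) and lower at puberty also at equal Actb. Creb1, the gene of the factor that binds cAMP response elements, was at 18.9 and 19.1 FPKM, and Usf1, an E-box factor and the highest of the list, was at 46.7 and 44.9 FPKM. Creb1 was named for that element and not by the rule for named genes.

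Among genes that neurons induce on Trk signalling or activity, 10 of 11 measured genes were lower at puberty and Junb was higher. Of the 9 with a mean of at least 1 FPKM, 8 were lower, where 51.0% of all genes with such a mean were lower, and their median was -0.37. None passed the size rule. Markers of neurons were lower in 6 of 6 cases, with a summed FPKM of 1710 before and 1546 at puberty (2 of 6 lower and 2047 FPKM at equal Actb). Their log2 ratios ranged from -0.48 to -0.0023, so that some hardly differed. Markers of cortex and hippocampus were also lower, as given above. The part of neurons or of cortical RNA in these values was not tested. Homer1, a scaffold of the synapse, was the highest of the induced genes, at 21.6 and 18.8 FPKM. At equal Actb 7 of 11 were lower and the median of the 9 was -0.0031, beside 0.36 for all genes.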

How the data were processed

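Hypothalamic RNA of prepubertal and pubertal female rats was sequenced by the study after removal of ribosomal RNA, in strand-specific paired-end libraries, aligned with TopHat and assembled with Scripture and Cufflinks. The deposited FPKM were estimated by the authors with Cuffdiff 2.1.1 and account for library size and for transcript length. The genome build is Rnor_5.0 in the submitters' processing notes, whereas the methods point to a later annotation. Transcript lengths and gene names were read from the deposited comparison table, whose log2 ratios, p-values and q-values are the authors' own comparison and were not used. The lncRNA tables were not used here.

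FPKM were summed per gene. Ratios used a pseudocount of 1 on FPKM, and the background used genes with a mean of at least 1 FPKM. Depth and fragment numbers were fitted on genes with 1 transcript of 800 to 4000 nt and up to 10 fragments, with FPKM multiplied by the length less 260 nt (prepubertal) or 254 nt (pubertal), and the fit was tested on simulated data. Fragment intervals are exact Poisson intervals, and ratio intervals are Clopper-Pearson intervals at 95%. Amplified reads are not independent molecules, so both cover counting error only. With 1 library per stage no test was run. The genes named were the members, Ntf4, Actb, the highest gene of each list and list genes past 1.5-fold. Some list genes are not reported here. Members and lists were chosen with earlier results of these data known. Promoter windows are from RefSeq (GRCr8), and no coordinates of the authors' build are given. The scripts ran in Python 3.11.15, with scipy 1.17.1 for the intervals, numpy 2.4.6, pandas 2.3.3 and, for plots, matplotlib 3.10.9.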

Additional observations from a re-analysis of the deposited data

How the results depend on the processing

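Each stage has 1 library, so no library could be left out, and the depth limits Ngfr, Ntf3 and Ntf4 most. No paired analysis was possible, because the stages hold different rats and 1 column of values each. No result comes from a test. Of 93 alternative values, 75 moved by less than the counting error, or by less than 1.5 times for a count, and 18 moved further. For Ntrk3 that error was taken from estimated fragments and is approximate. Some of the 75 could not move, since a gene with 1 transcript has no other, and the members had the same FPKM in the authors' comparison. For Ntf3 the error is wide. Its move from -0.53 to -1.44 with a pseudocount of 0.1 is among the 75, although it passes the size rule. The tally is thus no measure of how stable the results are. The direction of Ngfr and Ntf3 stayed lower at puberty under each alternative run. At equal Actb the log2 ratios were 0.29 for Bdnf, 0.28 for Ntrk2, 0.54 for Ntrk3 and 0.50 for Sort1, the median of the members was 0.29, and 100 genes were lower and 2287 higher. With a pseudocount of 0.1 the ratio of Ngfr was -1.51, 2 members were lower by 1.5-fold, and 571 genes were lower and 379 higher. With no pseudocount, an alternative added after the data were seen, the ratio of Ngfr was -1.69. With means of at least 5 FPKM, which leave out Ngfr and Ntf3, the median of the members was 0.015, 0 members were lower by 1.5-fold, and 195 genes were lower and 132 higher. Ntrk2 had -0.17 at equal sums of FPKM and 0.0091 after centring within 10 classes of transcript length. The highest transcript of Ntrk3 had -0.22. The genes of 0.25 to 2 FPKM were also added as a background after the data were seen.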

Other observations

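Neurotrophic factors outside the neurotrophin family were measured by a list of 15 genes, all of them present in the table. Of the 15 genes 8 were lower and 7 higher at puberty, the median log2 ratio of the 11 genes with a mean of at least 1 FPKM was -0.07, and none of these 11 passed 1.5-fold. Among the 4 genes below that mean, Cdnf, a relative of Manf, had 0.917 FPKM before and 0.165 FPKM at puberty, a log2 ratio of -0.72 and more than 1.5-fold lower. At equal Actb 2 of 15 were lower and the median was 0.32, beside 0.36 for all genes. Manf, a factor secreted from the stressed endoplasmic reticulum, was the highest, at 111 FPKM before and 122 FPKM at puberty. Ret, the kinase receptor of the GDNF family, had 10.6 and 10.1 FPKM, and its coreceptor Gfra1 had 23.7 and 22.5 FPKM. Gdnf, the ligand, also below that mean, was listed at 0 before puberty and at 0.275 FPKM at puberty, short of 1.5-fold on the FPKM + 1 scale. Cdnf, Ret, Gfra1 and Gdnf were named after their values were seen.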
